A study of Mus musculus with 9 samples.

Results

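The poly(A) RNA of whole testes of wild-type mice was sequenced in 3 libraries before any precipitation (the input libraries), out of 9 libraries in the experiment. The other 6 libraries held RNA recovered on antibody beads and are not compared here. The input libraries were chosen by their labels, and every gene with a count in any of them was described, which was 33250 of the 55401 genes in the count table. The study sequenced inputs and precipitates to map N4-acetylcytidine (ac4C), a modified base, in mRNA. The labels give genotype WT, tissue testis and no antibody, and the study's methods name ICR, an outbred strain, as its wild-type mice. The age of the mice of these libraries, and whether the libraries came from separate animals or from one RNA preparation, are not given in the sources used here, so the spread between libraries may be technical.

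Several steps limit the libraries as a picture of the testis. RNA was selected on oligo(dT) beads and an in vitro transcribed β-globin probe carrying ac4C was added to it for the precipitations. Reverse transcription again started from oligo(dT), and the cDNA was amplified before tagging (Smart-seq2). Counts per library were 31340090, 22023925 and 22192553 in input 1, 2 and 3, the order used for all values below, and 28552 to 29642 genes had a count in a library. Levels are given as FPKM, counts divided by the merged exon length in kilobases and by the library's total on genes (the usual fragments per kilobase per 1e6). With counts taken as independent, a 0 allows up to 3 counts, which for a transcript of 1000 bases is 0.0957, 0.136 and 0.135 FPKM. Most low counts were even, however. If both mates of a pair were counted, a 0 allows up to 3 pairs, and these limits are too low. Such limits cover counting error only.

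Sperm are made in the seminiferous tubules, where spermatogonia divide, spermatocytes pass through meiosis, and haploid round spermatids elongate into sperm. During elongation histones are replaced first by transition proteins and then by protamines, and mRNAs for these proteins are stored before they are translated. Sertoli cells nurse the germ cells inside the tubule, peritubular cells surround it, and Leydig cells between the tubules make testosterone.

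The highest level of any gene was that of Prm1 (chr16:10796326-10805839, minus strand, mm10), which encodes protamine 1, the small basic protein that packs sperm DNA. Prm1 measured 10050, 8899 and 7868 FPKM. Prm2 (chr16:10791380-10796134, minus strand), which encodes protamine 2, measured 8651, 8414 and 8321 FPKM. The ranges of the protamines overlapped, with Prm1 at 8938 ± 1089 FPKM (SD, n = 3) and Prm2 at 8462 ± 170 FPKM, so their order was not resolved. Tnp2 (chr16:10787936-10788660, minus strand), which encodes transition protein 2, measured 7162, 6865 and 6469 FPKM, below every Prm1 and Prm2 value. In bulk RNA, fewer cells of a type and less RNA per cell cannot be told apart, so these levels describe RNA and not cell numbers.

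The 6 genes chosen to describe the tissue, the 3 above among them, were abundant. Mael, which encodes a germ granule protein of the piRNA pathway, measured 1364, 1366 and 1356 FPKM and had a coefficient of variation (CV, SD over mean) of 0.384%. Akap4, an X-linked gene for the main scaffold protein of the sperm tail's fibrous sheath, measured 1023, 1043 and 1075 FPKM. Odf2, which encodes a protein of the outer dense fibres of the tail, was lower at 317, 304 and 305 FPKM. Its merged exons span 9919 bases, and with the longest annotated transcript as length its mean was 713 FPKM in place of 309 FPKM, a choice made after the data were seen. The same choice placed Prm2 at 11220 FPKM and Prm1 at 10880 FPKM, which turned the order of their means. These 6 genes were chosen with earlier results of these data known, so their abundance describes the libraries and is no independent check of the label.

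The promoters of Prm1, Prm2, Tnp2 and Ldhc, a gene described below, are shown because these protein coding genes had the highest mean FPKM. Each line gives the 120 bases just before the RefSeq transcription start, on the gene's strand (RefSeq, GRCm38.p6). Capitals mark matches, on either strand, to the TATA box letters TATAAA and to TGACG, the core of the full CREB/CREM site TGACGTCA that contains it.

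Prm1 (chr16:10796824-10796943, minus strand): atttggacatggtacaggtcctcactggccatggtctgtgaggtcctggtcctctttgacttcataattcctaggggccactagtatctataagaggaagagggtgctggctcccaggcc
Prm2 (chr16:10792106-10792225, minus strand): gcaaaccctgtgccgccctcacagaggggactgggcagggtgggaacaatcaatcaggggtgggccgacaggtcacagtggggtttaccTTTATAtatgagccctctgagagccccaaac
Tnp2 (chr16:10788656-10788775, minus strand): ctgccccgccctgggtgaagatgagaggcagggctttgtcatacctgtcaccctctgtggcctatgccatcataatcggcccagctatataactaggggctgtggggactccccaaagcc
Ldhc (chr7:46861143-46861262, plus strand): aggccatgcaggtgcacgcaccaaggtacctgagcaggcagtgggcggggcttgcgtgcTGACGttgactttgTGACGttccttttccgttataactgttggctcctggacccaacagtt

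In these windows TATAAA occurred, on the opposite strand, in Prm2, where the match began 31 bases before the start. TGACG occurred in Ldhc, at 61 and 47 bases before the start. Among the markers whose windows are not printed, Odf2 held TGACG at 102 and 27 bases before its start, while Mael and Akap4 held no match. Prm1 and Tnp2 held none of the 3 strings, which says only that these letters are not in this window. The RefSeq starts used here lie 9016 and 4029 bases from the ends of the longer gene models that the count table uses for Prm1 and Prm2. For comparison, over windows of 300 bases around the starts of 16528 protein coding genes, TATAAA was present in 12.9%, TGACG in 24.4% and TGACGTCA in 2.42%.

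**Figure D1:**
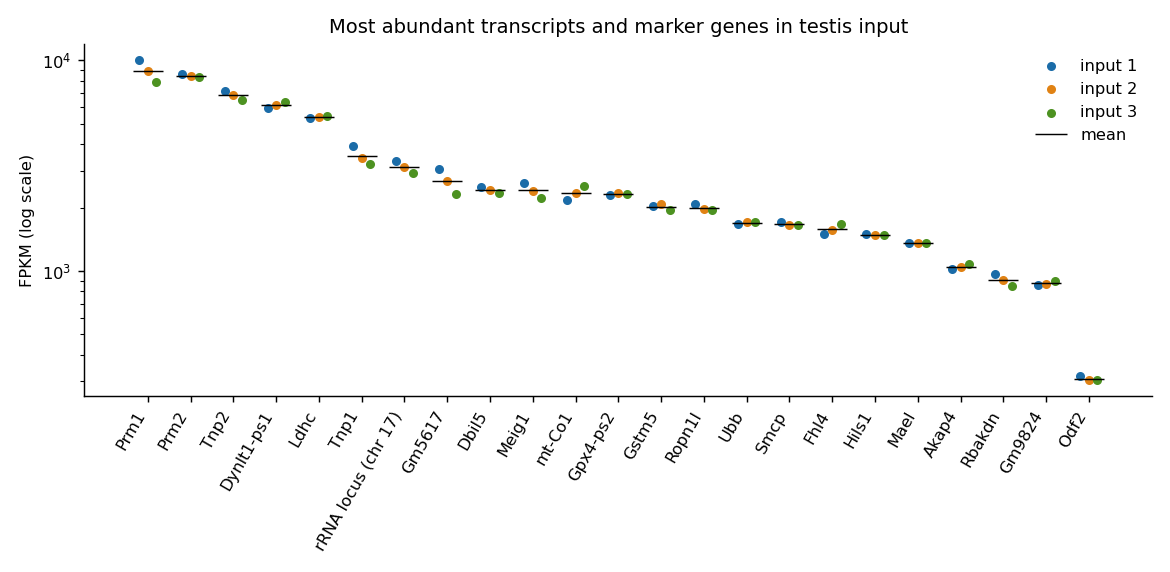
FPKM on a log axis of the 15 protein coding genes and the 5 genes of other types with the highest means, with the markers Mael, Akap4 and Odf2. Points are the 3 input libraries and bars their means. The points of a gene lie close together beside the distance from Prm1 at 8938 FPKM to Odf2 at 309 FPKM, and the 3 points of Prm1 and of Prm2 overlap in range.

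The transcriptome was led by genes of spermatids and late spermatocytes. After the protamines and Tnp2, the next protein coding gene was Ldhc (chr7:46861203-46878142, plus strand), the germ cell form of lactate dehydrogenase, at 5329, 5392 and 5426 FPKM (CV 0.915%). Tnp1, which encodes transition protein 1, followed at 3922, 3454 and 3219 FPKM, well below every Ldhc value. Gm5617, a gene without a common name, measured 3039, 2682 and 2328 FPKM. Dbil5, a testis relative of the acyl-CoA-binding protein, and Meig1, needed for spermatid elongation, stood at 2418 ± 76.6 and 2416 ± 194 FPKM and did not differ beyond their spread. The mitochondrially encoded mt-Co1, a subunit of cytochrome c oxidase, measured 2178, 2345 and 2537 FPKM.

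The remaining 6 of the 15 most abundant protein coding genes lay between 1485 and 2024 FPKM. Gstm5, a glutathione S-transferase, was at 2024 ± 61.0 FPKM and Ropn1l, of the sperm fibrous sheath, at 2002 ± 62.3 FPKM, with overlapping libraries. Ubb, a ubiquitin gene, was at 1695 ± 16.1 FPKM, and Smcp, whose protein lies in the mitochondrial capsule of sperm, at 1672 ± 26.2 FPKM. Fhl4, a testis LIM-domain gene, measured 1497, 1569 and 1671 FPKM. Hils1, a linker histone-like gene of spermatids, measured 1495, 1477 and 1482 FPKM.

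By counts rather than by level, Ldhc held the largest share. It took 0.842, 0.852 and 0.857% of the counts of the 3 libraries. Prm2 held 0.757% on average, Fhl4 0.561% and Prm1 0.510%. An 18S ribosomal RNA locus on chromosome 17 (chr17:39846353-39848201, plus strand) held 0.576%. The 10 most counted genes together held 4.93 ± 0.0655% of the counts, and the 100 most counted 17.3 ± 0.113%.

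Counts were spread over many genes beyond the leaders. The libraries needed 874, 879 and 884 genes to reach 50% of their counts, and 2732, 2744 and 2750 genes to reach 75%. A gene was taken as expressed when it reached 1 FPKM in all 3 libraries, which 14024 genes did. Of these, 10086 (71.9%) were protein coding, 46.1% of the 21897 protein coding genes. At the other end, 3321 protein coding genes had no count in any input library.

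**Figure D2:**
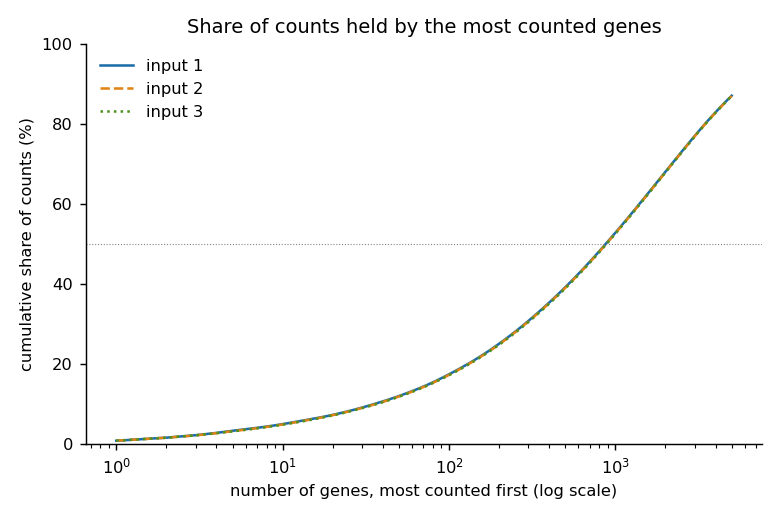
Cumulative share of counts (percent) against the number of genes, most counted first, on a log axis, with one line per input library. The lines lie on each other, starting at 0.842 to 0.857% for 1 gene and crossing 50% at 874 to 884 genes.

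Genes without a count were not always genes without use in the testis. Among 154 genes of mitochondrial complex I (Nduf), the proteasome (Psm) and the mitochondrial ribosome (Mrpl, Mrps), which every cell uses, 4 were listed at 0 in all 3 libraries, while the median of the 154 genes was 4648 summed counts. These were Ndufs3, Mrpl53, Mrps10 and Mrps23, a set looked at after zeros had been seen, and the cause was not tested. Of the 10 coding genes nearest to Ndufs3 on chromosome 2, 4 were also at 0, Celf1 and Kbtbd4 among them, while Psmc3, next to that run, had 87212 summed counts. Of the 10 coding genes nearest to Mrps23, 5 were at 0, among them the splicing factor Srsf1. A 0 in this table is therefore given below as listed at 0 and not as absence.

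By gene type, protein coding genes held 91.2, 91.3 and 91.5% of the counts. Processed pseudogenes came next with 3.22, 3.24 and 3.17%, then lincRNA genes with 2.31, 2.29 and 2.28% and antisense genes with 1.18 ± 0.0223% (SD, n = 3). Other long noncoding RNA genes held 0.640% and ribosomal RNA 0.576%. Small noncoding RNA genes held 0.0111%, and only 65 of their 5730 genes were expressed.

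Smaller shares of the other gene types were expressed. Beside the 46.1% of coding genes, 22.6% of 5614 lincRNA genes, 22.9% of 2959 antisense genes and 12.2% of 10232 processed pseudogenes were expressed. Levels were then compared among expressed genes only, which all passed the same limit of 1 FPKM. Their median was 7.26 FPKM for coding genes, 7.31 for processed pseudogenes, 5.84 for lincRNA and 6.05 for antisense genes. A mean of 100 FPKM or more was reached by 768 coding genes, 114 processed pseudogenes, 35 lincRNA genes and 14 antisense genes.

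The 5 most abundant genes of other types were 3 processed pseudogenes, the ribosomal RNA locus and 1 lincRNA. Dynlt1-ps1 (chr6:135349408-135349749, minus strand), a retrocopy of a dynein light chain gene, measured 5943, 6121 and 6356 FPKM and was the fourth most abundant gene of all. Gpx4-ps2 (chr10:45875291-45876086, plus strand), a retrocopy of the selenoprotein glutathione peroxidase 4, measured 2308, 2350 and 2311 FPKM. Gm9824, also a processed pseudogene, was at 874 ± 21.1 FPKM. The ribosomal RNA locus measured 3315, 3108 and 2922 FPKM. The lincRNA Rbakdn (chr5:143164779-143165751, minus strand) measured 971, 909 and 850 FPKM. Only uniquely mapped reads were counted, so the division of reads between a retrocopy and its near-identical parent is uncertain, and such levels may be too low or too high.

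The germ cell series was read from lists of marker genes. All cell type lists were chosen with earlier results of these data known, so their ranks describe the chosen genes only. Of 11 genes of undifferentiated spermatogonia, the cells that hold the stem cells, 5 were expressed and the median was 0.273 FPKM. The neuronal and spermatogonial ubiquitin hydrolase gene Uchl1 led at 20.3, 16.1 and 15.7 FPKM. The transcription factor gene Etv5 measured 2.77, 3.61 and 3.11 FPKM, and Gfra1, the receptor for the niche factor GDNF, 2.09, 1.61 and 2.07 FPKM. Zbtb16 (PLZF), a regulator of self-renewal, was at 0.187, 0.224 and 0.409 FPKM. Nanos2, an RNA-binding regulator of the stem cell state, had 0, 1 and 0 counts.

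Of 8 genes of differentiating spermatogonia, 7 were expressed, with a median of 4.06 FPKM. Stra8, the retinoic acid target that marks entry into meiosis, measured 6.37, 5.94 and 5.92 FPKM, and the receptor gene Kit 2.74, 2.45 and 2.55 FPKM. Dmrtb1, a transcription factor gene of the step from mitosis to meiosis, stood far above the others at 382, 375 and 382 FPKM. Without it the members lay between 0.441 FPKM (Ccnd2, cyclin D2) and 6.08 FPKM (Stra8).

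Of 20 genes of early meiosis, 18 were expressed and 16 had a mean of at least 10 FPKM, with a median of 34.5 FPKM. The synaptonemal complex, which holds paired chromosomes together, was represented over a wide range. Its central element gene Syce1 measured 318, 314 and 321 FPKM and Syce3 225, 210 and 197 FPKM, while Sycp1, of the transverse filament, measured 37.5, 34.6 and 35.1 FPKM. Spo11, the enzyme that cuts DNA to start recombination, measured 33.3, 33.6 and 32.7 FPKM, and Dmc1, the meiotic strand exchange protein, 5.28 ± 0.840 FPKM. Prdm9, which places the breaks, and Mei1 were below 1 FPKM, at 0.511 ± 0.141 and 0.793 ± 0.0377 FPKM.

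All 16 pachytene spermatocyte genes were expressed, with a median of 140 FPKM. Ldhc led this list and Mael followed. Pgk2, the germ cell phosphoglycerate kinase, measured 841, 838 and 858 FPKM, and the chaperone gene Hspa2 282, 268 and 261 FPKM. Piwil1 (MIWI), which binds pachytene piRNAs, measured 60.1, 60.9 and 60.3 FPKM. Hist1h1t, the testis linker histone of spermatocytes, was the lowest member as measured, at 2.83, 1.59 and 1.78 FPKM. Oligo(dT) would miss mRNA without a poly(A) tail, and whether this lowered its value was not tested. Mybl1, a transcription factor gene of the pachytene stage, measured 4.56, 5.06 and 4.86 FPKM.

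All 18 round spermatid genes were expressed, at a mean between 38.3 FPKM (the sperm calcium channel gene Catsper1) and 963 FPKM (the protease inhibitor gene Spink2). Their median was 139 FPKM, close to that of the pachytene list. Spink2 measured 989, 963 and 937 FPKM. The testis kinase Tssk2 measured 711, 681 and 659 FPKM, and Spaca1, an acrosome membrane protein, 312, 314 and 303 FPKM. Acr, the acrosomal protease, measured 175, 176 and 188 FPKM. Izumo1, the sperm protein that binds the egg, measured 60.4, 62.5 and 66.6 FPKM.

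The elongating spermatid list was the highest, with all 20 members expressed, 19 of them at 100 FPKM or more, and a median of 555 FPKM. Beside the protamines and transition proteins, Prm3, a further gene of the protamine cluster, measured 804, 732 and 688 FPKM. Spem1, needed to shed the cytoplasm, measured 739, 776 and 761 FPKM, and Ropn1, of the fibrous sheath, 679, 654 and 649 FPKM. H1fnt, a spermatid linker histone, was at 449 ± 11.1 FPKM, and Odf1, of the outer dense fibres, at 160 ± 5.39 FPKM. The lowest member was Gapdhs, the sperm form of glyceraldehyde-3-phosphate dehydrogenase, at 69.2, 62.3 and 61.3 FPKM. The 20 genes summed to 38590, 36280 and 34480 FPKM and held 3.32% of all counts, against 1.67% for the pachytene and 0.621% for the round spermatid list.

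**Figure D3:**
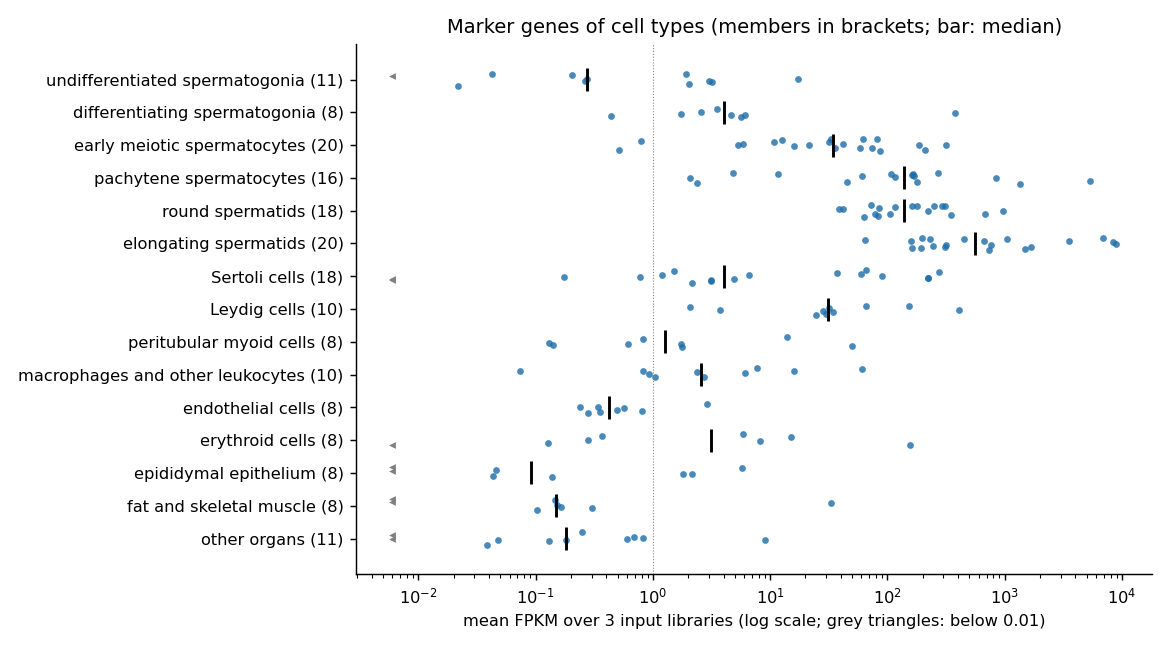
Mean FPKM over the 3 input libraries, on a log axis, of each member of 15 lists of cell type markers. Points are genes, black bars list medians, grey triangles genes below 0.01 FPKM, and the dotted line is 1 FPKM. The lists were chosen with earlier results of these data known. Medians rose from 0.273 FPKM in undifferentiated spermatogonia to 555 FPKM in elongating spermatids, and those of the 3 lists from outside the testis were 0.182 FPKM or lower.

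Marker genes of the somatic cells of the testis had medians below those of the pachytene and spermatid lists, but not below those of the spermatogonial lists in general. Of 18 Sertoli cell genes, 13 were expressed, with a median of 4.02 FPKM. The cystatin genes Cst9 and Cst12, protease inhibitors, measured 268, 273 and 287 FPKM and 222, 210 and 233 FPKM. Clu, the secreted chaperone clusterin, measured 217, 218 and 226 FPKM, and Inha, the α subunit of inhibin, 57.5, 61.8 and 58.3 FPKM. The transcription factor genes Wt1 and Sox9, which define the cell, were low at 4.90 ± 0.275 and 2.17 ± 0.0488 FPKM, and Fshr, the receptor for follicle-stimulating hormone, measured 0.838, 1.66 and 1.11 FPKM. Amh, the anti-Müllerian hormone of immature Sertoli cells, measured 0.306, 0.0544 and 0.162 FPKM. Rhox5 and Rhox8, homeobox genes of the X chromosome, were listed at 0. Of the 10 coding genes nearest to Rhox5, 9 had fewer than 10 summed counts, against a median of 1 over the 10892 coding genes with a mean of at least 100 counts. The neighbours of Rhox5 are themselves Rhox genes and the others are well counted genes. The comparison is therefore between unlike genes and does not show whether the 0 is an absence.

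Within each library, the summed FPKM of elongating spermatid genes was 39.4, 36.9 and 33.8 times that of the Sertoli genes (36.7 ± 2.84, n = 3). The ratio compares RNA of the chosen genes only, and it was 17.2 with summed counts and 133 with medians over the members, so its size depends on how the lists are summed. Sertoli sums were 979, 983 and 1021 FPKM.

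All 10 Leydig cell genes were expressed, with a median of 30.9 FPKM. Insl3, the hormone of testis descent, measured 443, 417 and 361 FPKM, and it shares 404 bases of exons with Jak3 on the same strand. The enzymes of testosterone synthesis were close between libraries, with Cyp17a1 at 153, 150 and 152 FPKM, Hsd3b1 at 62.9, 65.6 and 68.7 FPKM, Cyp11a1 at 33.8, 33.4 and 35.4 FPKM and Hsd17b3 at 29.1, 29.2 and 26.9 FPKM. Star, which carries cholesterol into mitochondria, measured 23.6, 25.7 and 25.0 FPKM. Lhcgr, the receptor for luteinizing hormone, measured 2.20, 1.95 and 2.09 FPKM.

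Markers of other somatic cells were lower. Of 8 peritubular genes, 4 were expressed, led by the myosin light chain gene Myl9 at 47.2, 50.3 and 51.7 FPKM and smooth muscle actin Acta2 at 14.1, 14.2 and 13.4 FPKM. Of 10 leukocyte genes, 6 were expressed, led by lysozyme, Lyz2, at 57.2, 60.4 and 63.3 FPKM and the complement gene C1qb at 16.3, 15.3 and 16.6 FPKM, whereas Ptprc (CD45) was at 0.0735 ± 0.0172 FPKM. Of 8 endothelial genes, only Egfl7 was expressed, at 3.06, 3.12 and 2.43 FPKM, and the list's median was 0.422 FPKM.

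Of 8 erythroid genes, 4 were expressed. Hbb-bs, an adult β-globin gene, measured 157, 155 and 158 FPKM, about 10 times the 15.4, 14.5 and 15.6 FPKM of Hba-a1, an α-globin gene. Hbb-bt, the other adult β-globin gene, measured 7.13, 5.36 and 5.19 FPKM. A β-globin probe was added to the RNA of this experiment, and its part in the Hbb-bs level was not tested. Hba-a2, a near copy of Hba-a1, had 2, 8 and 3 counts. Only uniquely mapped reads were counted, so the levels of near copies, and the ratio of Hbb-bs to Hba-a1, are uncertain.

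Genes of organs next to or away from the testis were near the floor with a few exceptions. Of 8 genes of the epididymal epithelium, 3 were expressed, the highest Rnase10 at 5.79, 5.18 and 6.44 FPKM, while Lcn5 and Adam7 were listed at 0. Of 8 fat and skeletal muscle genes, Adipoq, which encodes the fat hormone adiponectin, measured 34.7, 32.7 and 32.4 FPKM, while the other fat genes Plin1 and Fabp4 were at 0.153 and 0.300 FPKM and Cfd was listed at 0. Of 11 genes of liver, pancreas, heart, kidney, lung, brain and eye, only the apolipoprotein gene Apoa2 was expressed, at 8.68, 9.30 and 8.98 FPKM, and albumin, Alb, had 2, 0 and 6 counts.

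Autosomal copies of X-linked housekeeping genes were prominent. When the X chromosome is silenced in meiosis, such retrogenes, copied through mRNA, are known to supply the missing enzymes. Pgk2 measured 696, 545 and 445 times its X-linked parent Pgk1, which stood at 1.21, 1.54 and 1.93 FPKM. These ratios rest on 85, 76 and 96 counts of Pgk1, so their size is uncertain. Gk2, a glycerol kinase, measured 599 ± 12.5 FPKM against 0.592 ± 0.128 FPKM for Gk. Cox7b2, a cytochrome c oxidase subunit, measured 875, 865 and 849 FPKM against 20.9, 19.5 and 22.6 FPKM for Cox7b, a ratio of 41.3 ± 3.49. Pdha2, of pyruvate dehydrogenase, exceeded Pdha1 79.4 ± 6.66 times, and Cetn1, a centrin, exceeded Cetn2 52.9 ± 1.37 times.

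Smaller ratios were those of Prps1l1 over Prps1 (13.5 ± 0.791), G6pd2 over G6pdx (10.8 ± 0.606) and Cstf2t over Cstf2 (5.32 ± 0.686). Utp14b and Rbmxl2 were lower than their parents in each library, with ratios of 0.190 ± 0.0524 and 0.680 ± 0.129. In all, 9 of the 11 copies exceeded their parent in each library. The ratio of Rpl10l to Rpl10, 777 ± 118, rests on 20, 16 and 12 counts of Rpl10, a ribosomal protein gene with processed copies elsewhere, so it is uncertain under unique mapping. The same limit holds for any other parent with processed copies, and its part in the ratios was not tested.

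**Figure D4:**
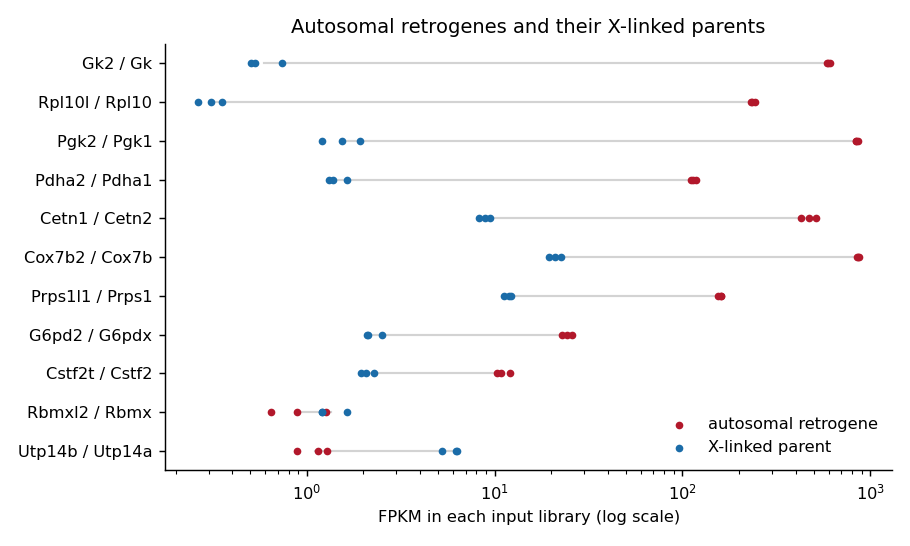
FPKM in each input library, on a log axis, of 11 autosomal retrogenes (red) and their X-linked parents (blue), ordered by the mean ratio. Each point is a library and grey lines join the means. Red points lie to the right of blue points in all pairs but Rbmxl2 with Rbmx and Utp14b with Utp14a.

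A germ cell or muscle form also led several steps of glycolysis, the pathway that drives sperm movement. Lactate dehydrogenase Ldhc measured 8.61, 8.39 and 8.23 times Ldha, which itself measured 619, 642 and 659 FPKM, and Ldhb was at 49.9 ± 1.98 FPKM. Pgam2, a phosphoglycerate mutase better known from muscle, measured 1265, 1232 and 1240 FPKM, against 5.35, 5.38 and 5.59 FPKM for Pgam1. The aldolase retrogene Aldoart2 measured 225, 224 and 231 FPKM, above Aldoa at 107, 109 and 110 FPKM and Aldoart1 at 77.1, 81.7 and 83.9 FPKM. Hexokinase Hk1 was at 103 ± 1.85 FPKM and Hk2 at 1.59 ± 0.162 FPKM. At the enolase step, Eno1 at 22.55 ± 1.09 FPKM and Eno4 at 21.6 ± 1.22 FPKM did not differ beyond their spread. Gapdh had 25, 40 and 18 counts, and because it has many processed copies elsewhere in the genome and only uniquely mapped reads were counted, its level is uncertain. The same limit holds for any other form listed that has processed copies.

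Coding genes of the X chromosome had a lower median level than all autosomal ones pooled, and a smaller share of them was expressed. No test of these differences was made. Of 929 X-linked coding genes, 39.9% were expressed, against 46.6% of 20780 autosomal ones, and 1.94% against 3.58% had a mean of at least 100 FPKM. The median of expressed X-linked genes was 5.65, 5.72 and 5.64 FPKM, and that of autosomal genes 7.32, 7.37 and 7.36 FPKM. Their ratio was 0.773, 0.775 and 0.766, and it moved between 0.623 and 0.844 with the FPKM limit, below 1 at each. Single autosomes varied between 6.25 FPKM (chromosome 13) and 8.66 FPKM (chromosome 11), so the X median of 5.67 FPKM lay below that of each autosome. The share expressed did not stand apart in this way, since chromosome 7 had 37.4%, below X, and chromosomes 6 and 14 had 40.9 and 41.1%.

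After Akap4, the most abundant X-linked genes included several known from spermatids. Cypt1, Cypt3 and Cypt2, of a family of basic spermatid proteins, were at 655 ± 58.1, 434 ± 26.9 and 382 ± 11.3 FPKM. Hypm was at 500 ± 12.9 FPKM and Tsga8, a spermatid gene, at 282 ± 33.1 FPKM. Prdx4, a peroxiredoxin, was at 251 ± 4.82 FPKM and H2al3, a histone H2A variant gene, at 176 ± 3.98 FPKM.

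Of 175 coding genes of the Y chromosome, 29 were expressed and 89 had no count. The translation initiation factor gene Eif2s3y had the highest mean, at 23.4, 23.5 and 22.8 FPKM. Gm20815 followed at 23.5, 22.3 and 20.5 FPKM and was above Eif2s3y in input 1. Gm28510 came next by mean, at 11.0 ± 0.333 FPKM. The zinc finger genes Zfy1 and Zfy2 measured 4.34, 4.48 and 4.57 FPKM and 5.48, 5.80 and 6.27 FPKM. Ssty1, Ssty2, Sly and Rbmy, spermatid or germ cell genes in many near-identical copies, were listed at 0, and 10 of the 10 coding genes nearest to Ssty2 had no count. Mitochondrial genes held 0.687, 0.725 and 0.771% of all counts.

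Genes for the ac4C writer and proteins that the study examined with it were of middling level. NAT10 is the acetyltransferase that makes ac4C, THUMPD1 its adaptor on tRNA, and PCBP1, PCBP2 and TDP43 (Tardbp) bind RNA. Nat10 measured 3.64, 3.70 and 3.34 FPKM and Thumpd1 11.5, 12.6 and 11.2 FPKM. Pcbp1 measured 30.4, 30.2 and 27.4 FPKM, Pcbp2 18.8 ± 0.344 FPKM, and Tardbp 12.2, 12.4 and 12.7 FPKM. Nat10 was the lowest of the 5 genes in each library and Pcbp1 the highest. Pcbp2 and Tardbp share exon bases with genes on the other strand, Map3k12 and Masp2, and the use of strand in counting is not given in the sources used here.

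Genes for proteins that store and guard germ cell mRNA were mostly high. Of 15, 14 were expressed, with a median of 52.9 FPKM. Pabpc2, a testis poly(A)-binding protein, measured 485, 493 and 507 FPKM, above Pabpc1 at 139, 138 and 140 FPKM. Ddx4, the germ cell helicase VASA, measured 259, 269 and 272 FPKM, and Ddx25, a spermatid helicase, 173, 174 and 174 FPKM. The Y-box protein gene Ybx2 (MSY2), which masks stored mRNAs, measured 83.2, 82.7 and 81.7 FPKM. Dazl and Boll, of the DAZ family, were at 51.1 ± 2.97 and 52.9 ± 2.63 FPKM. Celf1 was listed at 0, in the run of empty genes beside Ndufs3.

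Tubulins were led by Tuba3a, Tuba3b and Tubb4b, at 1028 ± 4.29, 1025 ± 11.4 and 888 ± 18.1 FPKM. Tuba3a and Tuba3b did not differ beyond their spread. Only uniquely mapped reads were counted, so the level of any tubulin gene with a near-identical relative is uncertain. Tuba1a and Tuba1b, abundant in many other tissues, had means of 28.0 and 22.2 FPKM, with CVs of 6.12% and 5.41%.

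Most gene families of the germ line picked by name were expressed nearly whole, where 46.1% of all coding genes were expressed. Being picked as germ line families, they give no independent check of the tissue. All 7 Cypt and all 6 Tssk genes were expressed, 28 of 29 Spata genes and 35 of 38 Tex genes, beside 77 of 83 genes of cytosolic ribosomal proteins. Of 33 Adam genes, many of them sperm surface proteins, a smaller share was expressed, 23 genes (69.7%). By contrast 15 of 1135 olfactory receptor genes were expressed, the highest Olfr761, and together they held 0.0289% of counts. Clone-named genes (Rik), most of them without a described function, held 4.06 ± 0.0221% of counts with 338 of 572 expressed, more than the 1.11 ± 0.00201% of the Spata genes.

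The long RNAs listed, chosen as nuclear-retained or imprinted, were low, with a median of 0.341 FPKM. Selection and priming on oligo(dT) favour RNA with a poly(A) tail, and the part of these steps in the levels was not tested. Malat1, abundant in the nuclei of most tissues, measured 3.62, 3.51 and 3.07 FPKM and Neat1 0.684, 0.616 and 0.748 FPKM. Gas5, a host gene of small nucleolar RNAs, was the highest of the 10 long RNAs listed at 8.44, 6.58 and 7.11 FPKM. Xist, which silences the X chromosome in females, had 12, 0 and 0 counts. Meg3 and Rian, of the imprinted Dlk1-Dio3 region, were listed at 0, while Mirg of the same region had 100, 85 and 89 counts.

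Abundant transcripts were short. The 37 genes at 1000 FPKM or more held 8.45% of the counts, and the 914 genes from 100 to 1000 FPKM held 36.2%. Most genes lay lower, 4739 from 10 to 100 FPKM with 40.4% of counts and 9444 from 1 to 10 FPKM with 13.4%. From the lowest of these classes to the highest, the median merged exon length of coding genes was 4497, 3159, 1659 and 913 bases. Single-exon genes made up 2.48, 2.87, 10.2 and 30.3% of the coding genes in the same order. FPKM divides by length, so length and level are not independent here.

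Promoters differed along the same classes. In windows of 300 bases around RefSeq starts, from 250 before to 50 after, the median number of CpG was 20 in the 1 to 10 and in the 10 to 100 FPKM class, 12 from 100 to 1000 FPKM and 6.5 at 1000 FPKM or more, the last from 28 genes. Over all coding genes with a window it was 14, and over those with no count 2. TGACG was present in 31.4, 34.1, 26.3 and 17.9% of windows from the lowest to the highest class, and TATAAA in 7.13, 7.41, 9.82 and 10.7%. TATAAA was most frequent, in 32.0%, in windows of genes with no count. None of the 28 windows of the highest class held TGACGTCA, against 2.42% of all windows. These shares are counts of letters and were not tested.

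Libraries resembled each other closely, and the spread shrank with counts. Over genes with a mean of at least 100 counts, the median CV was 6.50%. From 10 to 100 counts it was 26.5%, from 100 to 1000 counts 8.88%, from 1000 to 10000 counts 3.88% and above that 2.24%. Counting alone, taking both mates of each pair as one event because most low counts were even, would give 21.9, 6.91, 2.54 and 0.954%. The measured spread exceeded counting in each class, and by the largest factor in the most counted genes. Of the 427 genes in that class none had a CV over 20%, and 2 of 4197 genes from 1000 to 10000 counts did.

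Ratios between libraries shifted slightly with transcript length. Among 10885 nuclear coding genes with a mean of at least 100 counts, the median ratio of input 1 to input 3 was 1.10 for genes under 500 bases, 1.06 from 500 to 1000 bases and 1.02 from 1000 to 2000 bases. It was 0.992 from 2000 to 4000, 0.977 from 4000 to 8000 and 0.966 at 8000 bases or more. Input 1 was the highest library in 62.9% of the 35 shortest genes and in 23.7% of the 1987 longest. Across genes, which are not independent replicates, the log2 ratio of input 1 to input 3 correlated weakly with log2 length (Pearson's r = -0.169, Spearman's rho = -0.177). For input 1 over input 2 the values were -0.0689 and -0.0755, and for input 2 over input 3 -0.105 and -0.117.

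**Figure D5:**
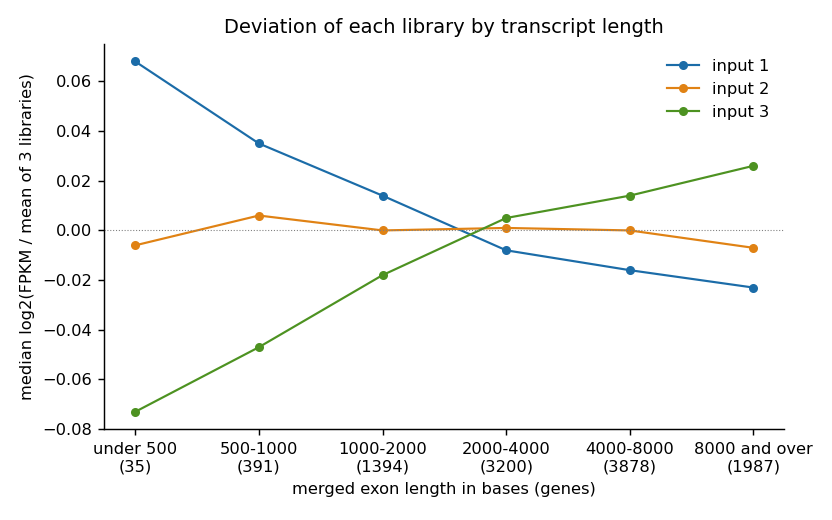
Median log2 of FPKM over the mean of the 3 libraries, for each input library, against merged exon length in 6 classes with the number of genes in brackets. Input 1 runs from 0.068 in genes under 500 bases to -0.023 at 8000 bases or more, input 3 from -0.073 to 0.026, and input 2 stays between -0.007 and 0.006.

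Abundant short genes differed in their spread. Prm1, with 571 bases, had the largest CV of the 15 most abundant protein coding genes after Gm5617, at 12.2% and 13.2%, both highest in input 1, and Tnp1 (437 bases) had 10.1%. Insl3 (623 bases) had 10.2%. Other short and abundant genes were close between libraries, with CVs of 0.617% for Hils1 (864 bases), 1.57% for Smcp (913 bases), 2.01% for Prm2 (894 bases) and 3.17% for Dbil5 (581 bases). Fhl4 (3554 bases) and Akap4 (3027 bases) lay the other way, highest in input 3. Prm1, Prm2, Prm3 and Tnp2 lie side by side on chromosome 16, whose share of counts was 4.65, 4.56 and 4.49%, the largest SD (0.0825 points) of the 19 autosomes.

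The 10 most variable genes with a mean of at least 500 counts included 4 processed pseudogenes, counting the histone gene Hist1h2al as annotated. Over all 7011 genes at this limit, 291 (4.15%) were processed pseudogenes, and 9 were among the 50 most variable. The largest CV, 70.2%, belonged to a processed pseudogene with 1474, 141 and 1060 counts, of which input 2 was low. Glns-ps1, a glutamine synthetase retrocopy, had 958, 404 and 668 counts. Coding genes among the 10 were the ribosomal protein gene Rpl35 (26.3, 19.3 and 16.2 FPKM), Tmsb15a (125, 89.6 and 83.0 FPKM), Tubgcp5 (2.86, 2.65 and 3.92 FPKM) and Dapp1 (6.03, 5.08 and 3.96 FPKM). Of the 1241 exon bases of Rpl35, 821 are shared with Wdr38 on the other strand. The use of strand in counting is not given, so part of the Rpl35 counts may belong to Wdr38. Of the 7011 genes, 11 had a CV over 20%. The median CV was 6.04% for processed pseudogenes and 4.29% for coding genes. These groups were not matched for counts, and the CV falls with counts, so the values do not show a difference between gene types.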

How the data were processed

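The authors deposited raw counts per gene, with merged exon lengths. Per the labels and methods, reads were trimmed with Trim Galore 0.6.7, mapped to mm10 with STAR 2.7.10a and, where unique, counted with featureCounts 2.0.2. The annotation release, the strand setting and the counting of mates are not given in the sources used here. Most low counts were even (82.6 to 84.3% of counts from 1 to 20). Gene names and types came from GENCODE vM21 (55141 of 55401 identifiers matched), promoters from RefSeq.

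FPKM was computed here from counts, deposited lengths and total counts. With one group, no test was made, and values are means with SD over 3 libraries. Named genes were the 15 coding and 5 other genes highest in FPKM (at least 200 bases and 100 counts), the 5 largest shares, the 10 largest CVs at 500 counts or more, and list members. Members and lists were chosen with earlier results of these data known. edgeR 4.0.16 and DESeq2 1.42.0 (R 4.3.3) gave other scalings. Python 3.11.15 made the rest, checked on simulated counts. Alternatives were other limits, units, scalings, thinning, lengths and each library left out. Columns of per-sample values that matched no sample numbered 0, and the 6 precipitate libraries were not used here.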

Additional observations from a re-analysis of the deposited data

How the results depend on the processing

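With the longest annotated transcript as length, Prm2 (11220 FPKM) stood above Prm1 (10880 FPKM), the opposite of the order of their means with merged exons. The number of expressed genes was 21998 with a limit of 0.1 FPKM and 14008 after thinning to the smallest library. With TPM in place of counts, 467 genes held 50% of the total and protein coding genes held 78.8%. The ratio of elongating spermatid to Sertoli genes was 133.4 with medians and 17.2 with summed counts. The median CV was 10.7% with a minimum of 10 counts, 3.73% with 1000 counts and 22.2% over every gene with a count, and 4.82 to 5.50% with one library left out, which leaves 2 libraries. The ratio of X to autosomes was 0.623 with a limit of 0.1 FPKM, 0.844 with 5 FPKM, 0.658 with no limit, 0.693 with TPM, whose limit lets in more genes, and 0.675 with the longest annotated transcript as length, chosen after the data were seen. Of the alternatives of the main results, 27 stayed within the library spread (counts of genes within 1.5-fold) and 16 did not. Of those of marker levels and list sums, 26 did and 25 did not. Leaving out a library moved no main result except the CV. No paired analysis was possible because the input libraries form a single group. Depth limits genes with few counts, and genes in repeated copies or in runs of empty genes may be undercounted whatever the depth.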
